A study of Mus musculus with 3 samples.

Results

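The 33 genes described here encode 17 parts of the vacuolar ATPase and 16 proteins of the lysosomal membrane, and they were taken from 31053 genes by matching their symbols to a list. Each of the 33 symbols had 1 row in the deposited matrix. The vacuolar ATPase (V-ATPase) is the proton pump that acidifies endosomes and lysosomes. Its V1 sector, on the cytosolic side, splits ATP, and its V0 sector, set in the membrane, carries the protons across. The lysosomal membrane also holds heavily glycosylated proteins such as LAMP1 and LAMP2, ion channels, and transporters that export the products of digestion. In liver, sinusoidal endothelial cells and Kupffer cells, the resident macrophages, are the main scavengers of particles from the blood, and both send what they take up to lysosomes.

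The cells were sorted non-parenchymal liver cells of LSL-Tomato/Ai14 mice, which carry a red fluorescent reporter that Cre recombinase switches on. Mice received PBS, 20a-LNP or 20mix-LNP and were sampled 3 h later. The series text states 0.3 mg/kg of Cre mRNA for both lipid nanoparticles, and each agent has 1 library of about 2000 loaded cells. The labels give no age or number of mice and do not name the populations that were sorted. The 3 libraries appear in the matrix as barcode suffixes 1, 2 and 3. No label or header says which suffix received which agent, so no value below is a treatment effect, and libraries are named by suffix.

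The matrix held 24111183 unique molecular identifiers (UMIs, each standing for 1 captured transcript), with 6144949 to 9211407 per library. After filters, 3207 cells with a median of 5669 UMIs remained. Cells were placed in classes by raw UMIs of lineage markers, none of which is among the 33 genes, and 2486 cells passed 1 of 11 gates. In 5 classes each library held at least 20 cells: 941 sinusoidal endothelial, 539 NK or ILC1, 384 plasmacytoid dendritic, 198 Kupffer and 103 nonclassical monocyte cells. A class is a range on a marker score: 42, 238, 82, 15 and 28 of these cells, in that order, lay within 2 times of a gate limit. Median UMIs per cell were 5444, 5868, 11431, 3100.5 and 6086 in the same order. Levels are UMIs per 1000000 UMIs of the class (CPM). Their 95% intervals are exact Poisson ones, those of ratios are exact given the total count, and both cover counting error only. No test was run: cells of 1 library are not replicates, and the 3 libraries received different agents. Ratios within each library stand in for a check. A 3′ UMI count does not grow with transcript length, but genes can differ in capture, so levels are compared between classes and not between genes.

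Several of the genes carry the same element near their start sites. TFEB and its relatives TFE3, MITF and TFEC are transcription factors that bind the core CACGTG, in its longer form TCACGTG, in front of many lysosomal genes. RefSeq windows on GRCm38.p6, from 250 bases before to 50 after the start site, existed for 26 of the 33 genes. TCACGTG on either strand, which contains CACGTG, occurred in 7 of the 26 (26.9%), against 1160 of 27025 genes in the table (4.29%). CACGTG occurred in 8 (30.8%) against 8.09% of all genes. The 7 genes with the longer form were Atp6v0b, Atp6v0d1, Atp6v0e, Atp6v1a, Lamp1, Mcoln1 and Clcn7. The stretches of 3 of them are shown, as examples from a V0 subunit, a structural protein and a chloride transporter. Each is the 100 bases before the start site, read 5′ to 3′ on the gene's strand, with each CACGTG in capitals.
Lamp1 (chr8:13159061-13159160, plus strand): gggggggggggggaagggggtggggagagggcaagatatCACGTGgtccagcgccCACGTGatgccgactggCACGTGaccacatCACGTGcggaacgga
Atp6v0b (chr4:117887330-117887429, minus strand): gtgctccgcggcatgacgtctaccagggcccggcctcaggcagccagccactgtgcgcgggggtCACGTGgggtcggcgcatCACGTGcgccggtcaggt
Clcn7 (chr17:25133291-25133390, plus strand): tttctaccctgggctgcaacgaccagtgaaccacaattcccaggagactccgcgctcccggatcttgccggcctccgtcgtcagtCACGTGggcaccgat
Lamp1 held 4 copies, beginning 61, 45, 28 and 15 bases before the start site, and Atp6v0b held 2, at 36 and 18 bases. Clcn7 held 2, beginning 15 bases before and 7 bases after the start site, the latter outside the stretch shown. The copy of Atp6v0d1 began 3 bases before the start site and reached across it. That of Atp6v0e began 3 bases after it. Such matches describe the sequence and do not show binding.

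Kupffer cells had the highest summed level of both groups, and NK or ILC1 cells had the lowest. The V-ATPase sum in Kupffer cells was 2701, 2621 and 2537 CPM in the libraries of suffix 1, 2 and 3. In sinusoidal endothelial cells it was 1532, 1536 and 1600 CPM. Pooled, plasmacytoid dendritic cells stood at 2065 CPM (2021 to 2111), nonclassical monocytes at 1869 (1765 to 1976) and NK or ILC1 cells at 1240 (1200 to 1280). The 5 classes kept apart in this order, with no overlap of intervals between neighbours. The 16 membrane genes gave another order. Kupffer cells stood at 4503 CPM (4358 to 4651), nonclassical monocytes at 3611 (3467 to 3759) and sinusoidal endothelial cells at 2944 (2897 to 2991). Below them came plasmacytoid dendritic cells at 2156 CPM (2111 to 2203) and NK or ILC1 cells at 1031 (995 to 1068), again with no overlap. Plasmacytoid dendritic cells thus lay above sinusoidal endothelial cells for the pump (ratio 1.31, interval 1.27 to 1.36) and below them for the membrane genes (0.732, 0.713 to 0.752). The latter ratio depended on single genes. Without Lamp2, which held 38.0% of the endothelial sum, it was 1.09. Laptm5 weighed the other way, at 46.9% of the plasmacytoid dendritic sum and 0.145% of the endothelial sum. The plasmacytoid dendritic ratio without Laptm5 was not computed. The place of nonclassical monocytes above sinusoidal endothelial cells rested on Laptm5. It held 40.3% of the monocyte sum, at 1454 CPM, against 4.28 CPM in sinusoidal endothelial cells.

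**Figure D1:**
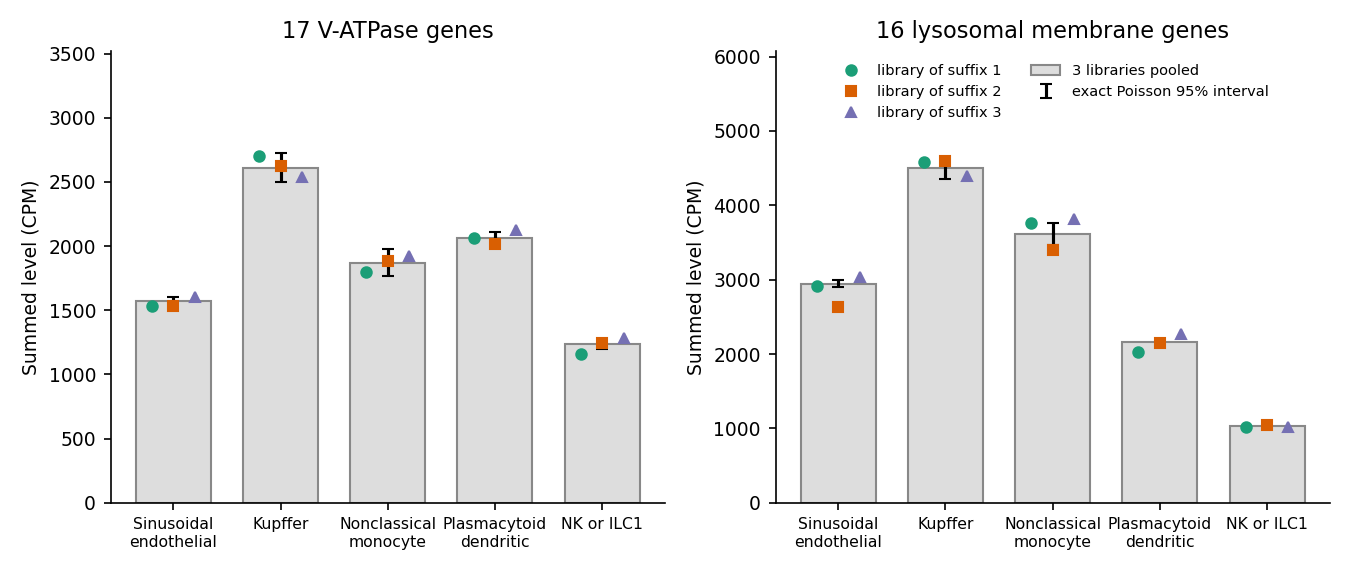
Summed level in CPM (vertical axes, starting at 0) of the 17 V-ATPase genes and the 16 lysosomal membrane genes in 5 gated classes. Bars are the 3 libraries pooled with exact Poisson 95% intervals and points are single libraries. Kupffer cells stand highest in both panels, at 2610 and 4503 CPM, and NK or ILC1 cells lowest, at 1240 and 1031 CPM.

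Within the pump, the sum of the listed V1 genes differed most between Kupffer and sinusoidal endothelial cells. The 8 V1 genes summed to 1413 CPM in Kupffer cells and 736 CPM in sinusoidal endothelial cells, a ratio of 1.92 (1.79 to 2.05). The 7 V0 genes gave a ratio of 1.44 (1.32 to 1.56) and the 2 accessory genes 1.42 (1.26 to 1.61). Neither interval met that of V1. The V0 sum holds Atp6v0a1 and Atp6v0a2, which were lower in Kupffer cells (0.346 and 0.247). It also holds Atp6v0b and Atp6v0e, which were higher (1.99 and 2.89). Tcirg1, a further V0 gene with a ratio of 2.85, is outside the list. How far the sector contrast rests on the genes listed was not tested. In single cells thinned to 1000 UMIs, the median was 3 V-ATPase UMIs per Kupffer cell and 1 per sinusoidal endothelial cell. The means were closer, at 2.71 and 1.55, and the quartiles were 2 to 4 and 1 to 2. The comparison leaves out 36 and 82 cells that were shallower.

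A gene was called higher or lower where it had at least 20 CPM in the higher class, a pooled ratio of 2 or more (or 0.5 or less), and the same direction in 3 of 3 libraries. Against sinusoidal endothelial cells, Kupffer cells had 8 of the 29 members with 20 CPM in either class called higher, beside 15.5% of 7417 genes. They had 7 called lower, beside 33.5%. Of the 15 V-ATPase genes among them 4 were higher and 2 lower, and of the 14 membrane genes 4 were higher and 5 lower. The 4 higher membrane genes (Cd68, Laptm5, Slc11a1 and Slc29a3) were under 20 CPM in sinusoidal endothelial cells. They passed the filter only through Kupffer cells and could only be higher. Of the 5 lower, Cd63, Mcoln1 and Tpcn1 were under 20 CPM in Kupffer cells and could only be lower. The shares over all genes carry this filter too. The median ratio was 1.60 for the V-ATPase genes and 0.680 for the membrane genes, beside 0.749 over all 7417 genes (medians here use CPM + 1). With TMM scaling (trimmed mean of M values) the median log2 ratio of all genes moved from -0.42 to -0.10. The share of calls that were higher, over all genes, went from 31.6% to 42.5%. The same scaling moved the median from -0.31 to -0.09 for plasmacytoid dendritic and from -0.22 to -0.13 for NK or ILC1 cells. The comparisons of 4 classes with sinusoidal endothelial cells share that class, so their values stand side by side and are not independent.

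**Figure D2:**
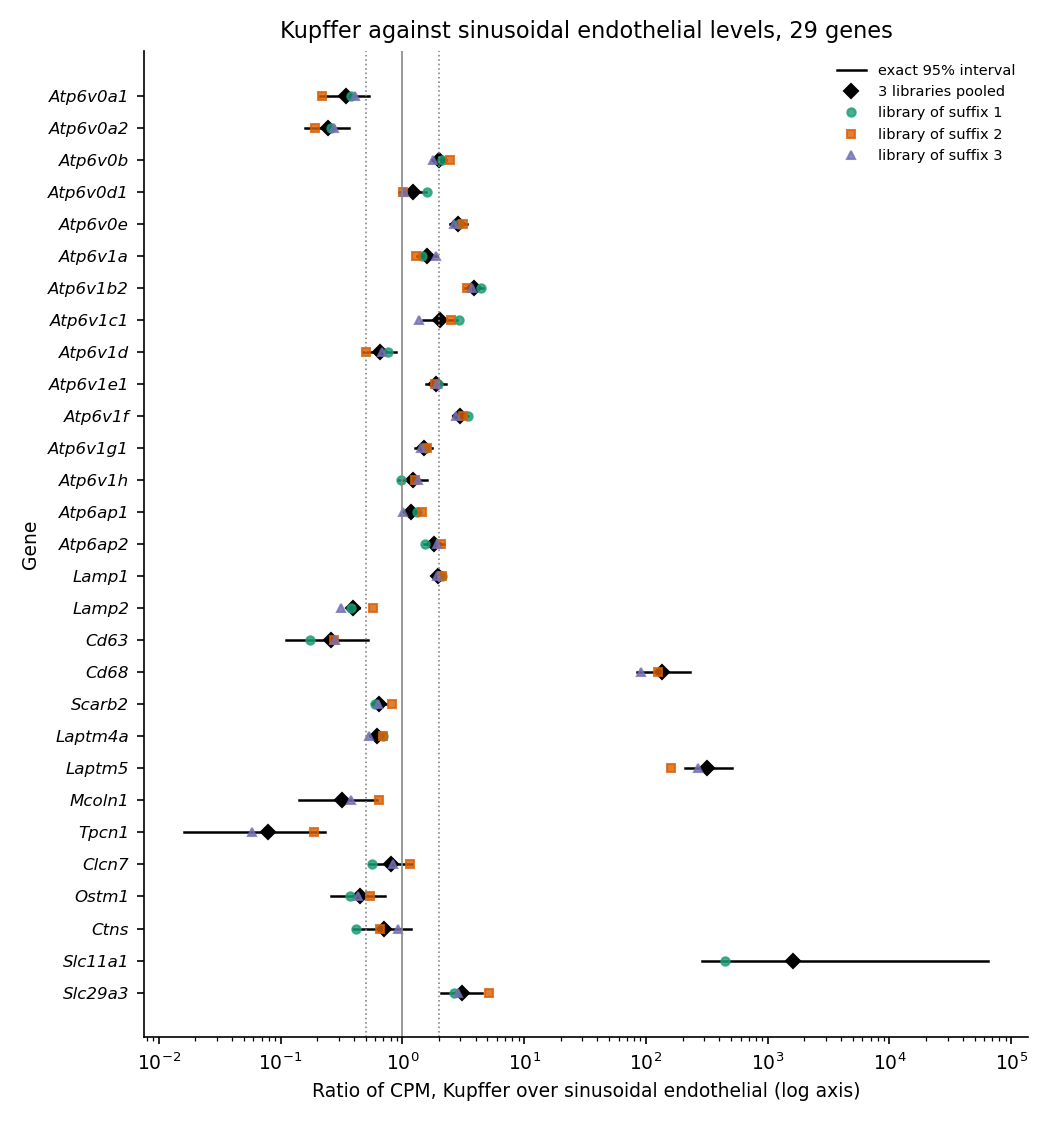
Ratio of CPM, Kupffer over sinusoidal endothelial cells (log axis), for the 29 genes with at least 20 CPM in either class. Diamonds are pooled values with exact 95% intervals, coloured points are single libraries (ratios of 0 or without a count in the denominator are not drawn), and dotted lines mark ratios of 0.5 and 2. Most V-ATPase genes lie between 1 and 4, while the membrane genes run from 0.0786 (Tpcn1) to over 100 (Cd68, Laptm5 and Slc11a1).

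Of the V0 genes, Atp6v0b, which encodes a proton-carrying subunit of the membrane ring, was measured at 359, 371 and 331 CPM in Kupffer cells and 170, 152 and 185 CPM in sinusoidal endothelial cells. The libraries of both classes did not overlap, and the pooled ratio of 1.99 (1.74 to 2.28) fell just short of the fold used. Nonclassical monocytes (343 CPM) and plasmacytoid dendritic cells (315 CPM) were not apart from Kupffer cells. Of its exon bases, 11.8% lie opposite an antisense gene, and the share of its UMIs this touches was not tested. Atp6v0e, the small e subunit, was at 103 CPM in sinusoidal endothelial cells. It was 2.89-fold higher in Kupffer cells (2.47 to 3.37), 3.25-fold in plasmacytoid dendritic cells (2.94 to 3.60), 2.78-fold in nonclassical monocytes (2.34 to 3.29) and 2.07-fold in NK or ILC1 cells (1.84 to 2.33). The last of these falls below 2 when cells are thinned, when cells weigh equally, or without the library of suffix 3. Atp6v0e also varied between libraries of nonclassical monocytes, at 212, 252 and 433 CPM, where the intervals of the lowest and highest did not overlap.

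Atp6v0d1, the d subunit that joins V0 to the central stalk, ran from 43.8 CPM in NK or ILC1 cells to 104 CPM in nonclassical monocytes, and the upper 4 classes were not apart from their neighbours. Its paralogue Atp6v0d2, known from osteoclasts and macrophages, gave 1 UMI in Kupffer cells, 3 in nonclassical monocytes and 0 in the other 3 classes. In sinusoidal endothelial cells 0 UMIs allow up to 0.583 CPM. Atp6v0c, the main ring subunit, reached only 6.19 CPM in Kupffer cells, its highest class. Of its 3′-end 50-base words, 34.9% also occur in pseudogenes that have no row in the matrix. Whether reads went uncounted was not tested, so its level is uncertain.

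The a subunit, which holds the proton half-channels and directs the pump to its compartment, is encoded by several genes, and their mixture differed between classes. Atp6v0a1 (chr11:101009452-101063719) was at 64.7, 81.2 and 78.0 CPM in sinusoidal endothelial cells, 24.7, 17.9 and 32.2 CPM in Kupffer cells, and 0 in all 3 libraries of NK or ILC1 cells. Set against 3 UMIs over the class, it was at least 74.8-fold higher in sinusoidal endothelial than in NK or ILC1 cells. Atp6v0a2 (chr5:124628576-124724455) was at 127, 139 and 129 CPM in sinusoidal endothelial cells and 33, 26.8 and 35.1 CPM in Kupffer cells. It was at 92 CPM in NK or ILC1 cells, a ratio of 0.707 (0.612 to 0.815). Both genes were highest in sinusoidal endothelial cells in 3 of 3 libraries, unlike any other V-ATPase member.

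Tcirg1 (chr19:3896050-3907133), the a3 subunit known for acidifying the osteoclast surface and late endosomes, is not one of the 33 genes but completes the set. It was at 131 CPM in Kupffer cells and 123 CPM in plasmacytoid dendritic cells, 2.85-fold (2.24 to 3.59) and 2.67-fold (2.28 to 3.13) the level in sinusoidal endothelial cells. In these 3 genes' UMIs, Tcirg1 made up 18.3% (exact binomial interval 16.3 to 20.6) in sinusoidal endothelial cells. It made up 69.3% (61.3 to 76.5) in Kupffer cells, 72.9% (69.3 to 76.2) in plasmacytoid dendritic cells and 67.7% (54.9 to 78.8) in nonclassical monocytes. In NK or ILC1 cells Atp6v0a2 made up 67.2% (62.5 to 71.8) and Atp6v0a1 gave 0 of 409 UMIs. The Kupffer share of Tcirg1 was 63.2%, 78.7% and 66.2% by library, and the sinusoidal endothelial share 15.7%, 15.0% and 20.3%, with no overlap. Of the exon bases of Atp6v0a2, 9.86% lie opposite an antisense gene.

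**Figure D3:**
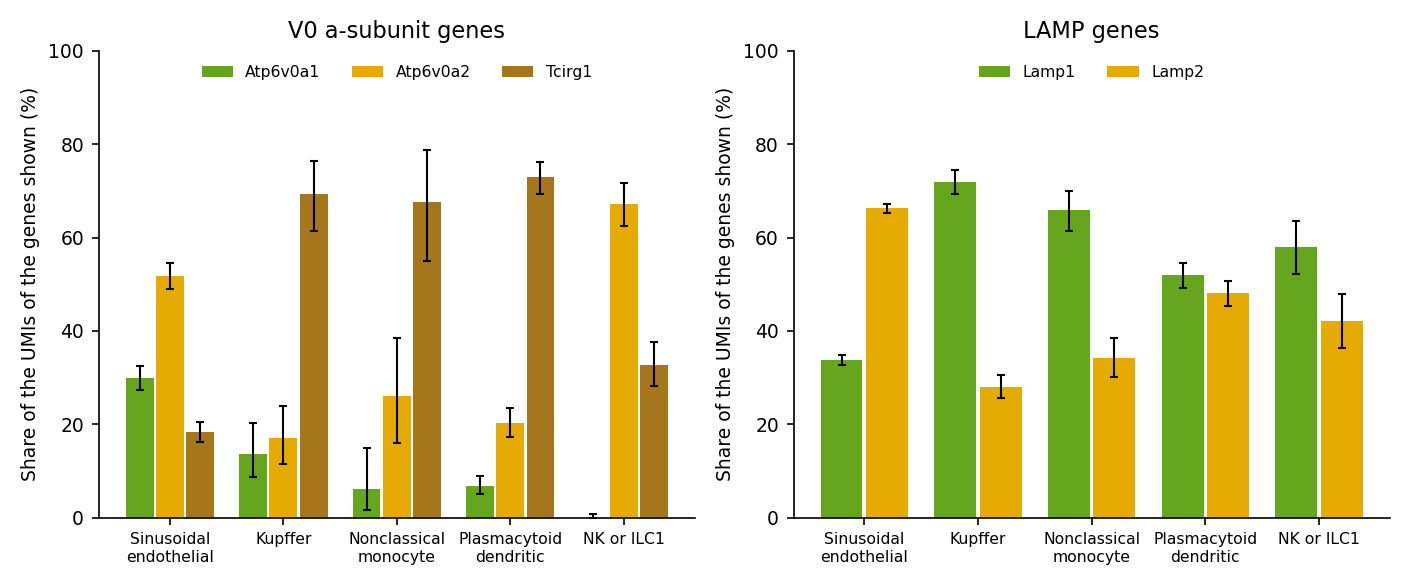
Share in percent of the UMIs of Atp6v0a1, Atp6v0a2 and Tcirg1 (left) and of Lamp1 and Lamp2 (right) in 5 gated classes. Bars are pooled over 3 libraries with exact binomial 95% intervals. Tcirg1 makes up 18.3% in sinusoidal endothelial cells and 67.7% to 72.9% in Kupffer, plasmacytoid dendritic and nonclassical monocyte cells, and Lamp1 33.8% in sinusoidal endothelial and 72.0% in Kupffer cells.

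Among the V1 genes, Atp6v1b2 (chr8:69088646-69113711), the B subunit that forms the ATP-binding head with the A subunit, had the largest Kupffer ratio. It was at 280, 272 and 252 CPM in Kupffer cells and 63.3, 80.0 and 67.6 CPM in sinusoidal endothelial cells. In plasmacytoid dendritic cells it was at 29.8, 32.4 and 24.7 CPM. The Kupffer libraries stood above both other classes, 3.89-fold (3.26 to 4.62) over sinusoidal endothelial and 9.19-fold (7.29 to 11.6) over plasmacytoid dendritic cells. The other B gene, Atp6v1b1, gave 1 UMI in sinusoidal endothelial cells and 0 elsewhere, so Atp6v1b2 made up 99.7% to 100% of the pair. Atp6v1a, the catalytic A subunit, was also highest in Kupffer cells at 172 CPM, beside 107 in sinusoidal endothelial, 63.5 in plasmacytoid dendritic and 31.4 in NK or ILC1 cells. Plasmacytoid dendritic cells were thus the lowest class for the B subunit, not apart from NK or ILC1 cells, and stood above NK or ILC1 cells for the A subunit.

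Atp6v1f, the stalk F subunit, was 3.00-fold higher in Kupffer (2.59 to 3.48), 2.75-fold in nonclassical monocyte (2.33 to 3.23), 2.42-fold in NK or ILC1 (2.17 to 2.69) and 2.32-fold in plasmacytoid dendritic cells (2.10 to 2.58) than in sinusoidal endothelial cells at 112 CPM. Those 4 classes were not apart from their neighbours in order. For NK or ILC1 and plasmacytoid dendritic cells the ratio falls below 2 when cells are thinned or weigh equally. Of its 3′-end words, 16.2% are shared with another gene model that has no row in the matrix, so its level is uncertain. Atp6v1d, the D subunit of the rotor, ran the other way. It was at 213, 199 and 226 CPM in plasmacytoid dendritic cells, and at 70.1, 40.2 and 61.5 CPM in Kupffer cells. The plasmacytoid dendritic level was 2.39-fold that of sinusoidal endothelial cells (2.13 to 2.69), and no library of the other 4 classes exceeded 91.5 CPM. The call was lost when cells were thinned to 1000 UMIs.

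Atp6v1c1, the C subunit that couples V1 to V0, was at 82.5, 75.9 and 46.8 CPM in Kupffer cells against 28.3, 30.3 and 34.0 CPM in sinusoidal endothelial cells. Its ratio of 2.06 (1.48 to 2.82) passed the fold narrowly and was lost under 5 other settings, among them leaving out the library of suffix 1 or of suffix 2. Atp6v1e1, a peripheral stalk subunit, was 1.90-fold higher in Kupffer than in sinusoidal endothelial cells (1.58 to 2.27) and Atp6v1g1, its partner in that stalk, 1.5-fold (1.28 to 1.75). Atp6v1h, the regulatory H subunit, lay between 49.5 and 79.2 CPM in all 5 classes, with no neighbours apart.

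Both accessory genes were lowest in NK or ILC1 cells. Atp6ap1, an assembly factor of V0, was at 202 CPM in Kupffer cells and 171 CPM in sinusoidal endothelial cells, not apart, and at 56.2 CPM in NK or ILC1 cells. Atp6ap2, the (pro)renin receptor, was at 189 CPM in plasmacytoid dendritic, 188 in Kupffer, 103 in sinusoidal endothelial and 43.5 CPM in NK or ILC1 cells. Against sinusoidal endothelial cells the 2 genes had ratios of 0.330 (0.278 to 0.389) and 0.421 (0.345 to 0.511) in NK or ILC1 cells.

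**Figure D4:**
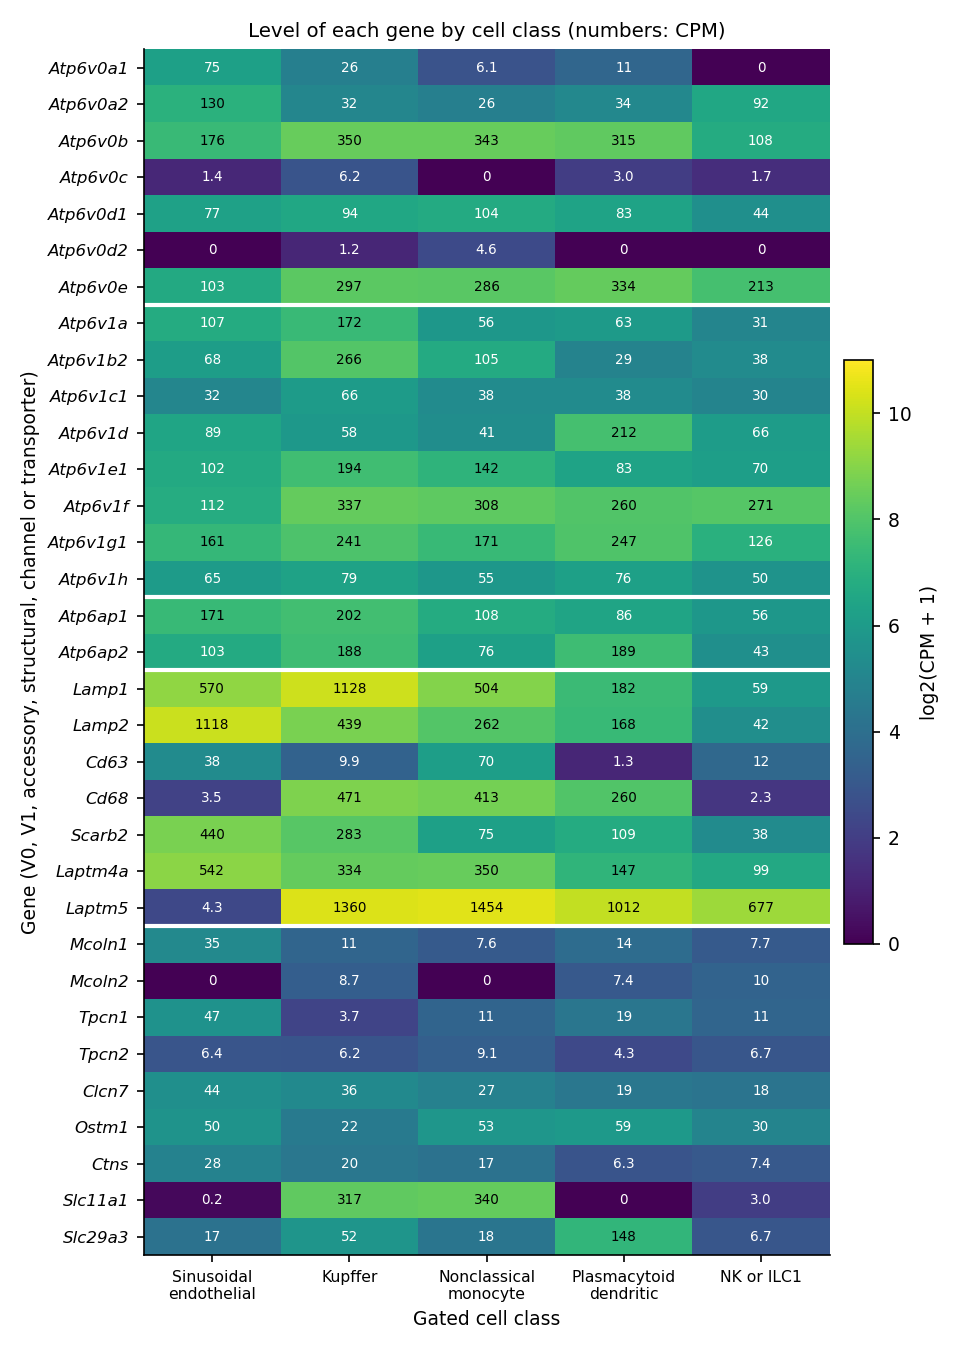
Level of each of the 33 genes (rows, in the order V0, V1, accessory, structural, channel or transporter) in 5 gated classes (columns). Colour is log2(CPM + 1) and the numbers are CPM pooled over 3 libraries. Lamp2 is highest in sinusoidal endothelial cells at 1118 CPM, and Laptm5 is at 4.28 CPM there against 677 to 1454 CPM in the other classes.

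Of the structural membrane proteins, the LAMP pair was inverted between the scavenger classes. LAMP1 and LAMP2 are the most abundant glycoproteins of the lysosomal membrane, and LAMP2 also serves autophagy. Lamp1 (chr8:13159161-13175338) was at 1196, 1036 and 1141 CPM in Kupffer cells and 566, 485 and 595 CPM in sinusoidal endothelial cells. Lamp2 (chrX:38401357-38456454) was at 404, 589 and 366 CPM in Kupffer cells and 1072, 1023 and 1165 CPM in sinusoidal endothelial cells. Neither gene's libraries overlapped between the classes. The ratios were 1.98 (1.84 to 2.13) for Lamp1, just under the fold, and 0.393 (0.352 to 0.437) for Lamp2. Lamp1 made up 72.0% (69.4 to 74.4) of the pair in Kupffer cells and 33.8% (32.8 to 34.8) in sinusoidal endothelial cells.

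The other classes lay between these shares. Lamp1 made up 65.8% (61.5 to 69.9) of the pair in nonclassical monocytes, 57.9% (52.2 to 63.6) in NK or ILC1 cells and 51.9% (49.2 to 54.6) in plasmacytoid dendritic cells. In levels, Lamp2 was 6.65-fold lower in plasmacytoid dendritic than in sinusoidal endothelial cells (6.14 to 7.22) and 26.3-fold lower in NK or ILC1 cells (22.1 to 31.6). The Lamp1 share was lowest in sinusoidal endothelial cells in 3 of 3 libraries. In cells thinned to 1000 UMIs, Lamp2 was seen in 63.9% of sinusoidal endothelial and 33.3% of Kupffer cells, and Lamp1 in 39.6% and 64.2%. Without thinning the shares were 88.1% and 63.1% for Lamp2, and 77.8% and 84.3% for Lamp1.

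Lamp2 in Kupffer cells was the one member there whose lowest and highest libraries did not overlap in their intervals. The library of suffix 2, which was highest, also held more hepatocyte transcripts in this class. The 7 hepatocyte markers summed to 656 CPM there, beside 223 and 255 CPM in the libraries of suffix 1 and 3, and their part in the Lamp2 level was not tested. In sinusoidal endothelial cells the library of suffix 2 had the lowest Lamp1, Lamp2 and Scarb2, each with intervals apart from the highest. Its hepatocyte sum was 344 CPM, beside 188 and 148 CPM. Of the exon bases of Lamp1, 9.31% lie opposite Grtp1.

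Laptm5 (chr4:130913125-130936141), a membrane protein of haematopoietic lysosomes, split the endothelial class from all others. Its libraries read 0, 8.49 and 5.04 CPM in sinusoidal endothelial cells and 1381, 1357 and 1346 CPM in Kupffer cells. Nonclassical monocytes had 1454 CPM, plasmacytoid dendritic cells 1012 and NK or ILC1 cells 677. The Kupffer level was 318-fold (209 to 509) and the NK or ILC1 level 158-fold (104 to 253) that of sinusoidal endothelial cells. Laptm5 took 30.2% of the membrane sum in Kupffer cells and 65.7% in NK or ILC1 cells. Without it the Kupffer membrane sum was 1.07-fold that of sinusoidal endothelial cells, beside 1.53-fold with it. After thinning, 76.5% of Kupffer cells and 4 of 859 sinusoidal endothelial cells (0.466%) had a UMI, beside 89.9% and 1.91% without thinning.

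Its relative Laptm4a, which is broadly expressed, had another order. It was highest in sinusoidal endothelial cells at 542 CPM, then 350 CPM in nonclassical monocytes, 334 in Kupffer, 147 in plasmacytoid dendritic and 98.7 CPM in NK or ILC1 cells. Its paralogue Laptm4b was at most 7.53% of the pair.

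Cd68 (chr11:69664213-69666153), the mucin-like LAMP relative used to mark macrophages, was at 503, 460 and 457 CPM in Kupffer cells. It was at 477, 381 and 397 CPM in nonclassical monocytes and 225, 290 and 258 CPM in plasmacytoid dendritic cells. Kupffer cells and monocytes were not apart, and both stood above plasmacytoid dendritic cells. In sinusoidal endothelial and NK or ILC1 cells it was at 3.50 and 2.34 CPM. Cells with a UMI after thinning were 31.5% of Kupffer, 21.9% of plasmacytoid dendritic and 0.349% of sinusoidal endothelial cells. Without thinning they were 63.1%, 76.0% and 1.49%.

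Scarb2, which encodes LIMP-2, the carrier of glucocerebrosidase to lysosomes, was highest in sinusoidal endothelial cells at 453, 346 and 461 CPM. Kupffer cells had 268, 286 and 293 CPM and nonclassical monocytes 84.8, 72.9 and 66.2 CPM, with no overlap among the 3 classes. Against sinusoidal endothelial cells the level was 4.05-fold lower in plasmacytoid dendritic (3.65 to 4.50) and 11.4-fold lower in NK or ILC1 cells (9.49 to 13.9). Cd63, a tetraspanin of late endosomes, was at 133, 3.31 and 120 CPM in nonclassical monocytes, with 46 UMIs in 3 of 103 cells, 1 cell in each library. The cell of suffix 1 held 25 UMIs, that of suffix 3 held 20 and that of suffix 2 held 1, so single cells carried both the class level and the difference between libraries. For the other members at 20 CPM or more in a class, the highest cell held at most 22.2% of the UMIs. It was at 38.1 CPM in sinusoidal endothelial and 9.90 CPM in Kupffer cells. As 53.9% of its 3′-end words also occur in its pseudogene, which has no row in the matrix, the level of Cd63 is uncertain.

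Of the channels and transporters, Slc11a1 (chr1:74375195-74386062), also called Nramp1, which pumps iron and manganese out of phagosomes, was high in 2 of the 5 classes. It was at 330, 299 and 319 CPM in Kupffer cells and 398, 315 and 319 CPM in nonclassical monocytes, not apart. In sinusoidal endothelial cells 1 UMI was counted, which gives a Kupffer ratio of 1629 with an interval of 290 to 64588. Plasmacytoid dendritic cells had none, so that Kupffer cells were at least 416-fold higher, set against 3 UMIs over the class. Among the classes pooled over libraries only, neutrophils were at 224 CPM and conventional dendritic 1 cells at 22.9 CPM.

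Slc29a3, a nucleoside exporter of lysosomes, was a plasmacytoid dendritic gene among these 5 classes. It was at 142, 133 and 170 CPM there, above all Kupffer libraries at 41.2, 62.5 and 52.7 CPM. In sinusoidal endothelial cells it was at 16.7 CPM, which made the plasmacytoid dendritic level 8.87-fold (7.06 to 11.3) and the Kupffer level 3.11-fold (2.10 to 4.54) higher. The Kupffer call was lost when cells were thinned to 1000 UMIs. Of its 3′-end words, 6.84% are shared with another gene.

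Of the 4 cation channels, Tpcn1 and Mcoln1 were highest in sinusoidal endothelial cells. Tpcn1, the calcium and sodium channel TPC1, was at 40.2, 47.3 and 50.4 CPM in sinusoidal endothelial cells and 0, 8.93 and 2.93 CPM in Kupffer cells, where 3 UMIs were counted. The endothelial level was 12.7 times the Kupffer level, with an interval of 4.30 to 62.2. The call was lost when cells were thinned to 1000 UMIs, where 2 of 162 Kupffer and 41 of 859 sinusoidal endothelial cells had a UMI. Mcoln1, the calcium channel TRPML1, was at 35.0 CPM in sinusoidal endothelial cells and between 7.61 and 14.0 CPM in the other classes. Its paralogue Mcoln2 reached 10.4 CPM in NK or ILC1 cells, where it made up 57.4% of 54 UMIs of the family, and gave 0 UMIs in sinusoidal endothelial cells and monocytes. Tpcn2 stayed between 4.32 and 9.14 CPM with no neighbours apart. With Atp6v0c and Atp6v0d2, Mcoln2 and Tpcn2 were the 4 members under 20 CPM in all 5 classes.

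Clcn7, the chloride-proton exchanger of lysosomes, and Ostm1, its beta subunit, were not ordered alike. Clcn7 was at 44.1 CPM in sinusoidal endothelial cells, 35.9 in Kupffer cells and 27.4 in nonclassical monocytes. It was at 19.3 in plasmacytoid dendritic and 18.1 CPM in NK or ILC1 cells, with no neighbours apart in this order. Against sinusoidal endothelial cells it was called lower in NK or ILC1 cells (0.409, 0.298 to 0.553) and in plasmacytoid dendritic cells. These calls were lost under 1 and 4 other settings. Ostm1 was highest in plasmacytoid dendritic cells at 59.2 CPM and lowest in Kupffer cells at 22.3 CPM, a ratio of 0.376 (0.219 to 0.608). Ctns, the cystine exporter, was at 28.0 CPM in sinusoidal endothelial and 19.8 CPM in Kupffer cells, not apart. It was 4.41-fold lower in plasmacytoid dendritic than in sinusoidal endothelial cells (2.87 to 7.04).

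Against sinusoidal endothelial cells, most membrane genes tested were lower in plasmacytoid dendritic and in NK or ILC1 cells, and fewer were in nonclassical monocytes. A gene under 20 CPM in either class compared enters only through the other, which fixes its direction. Cd63, Mcoln1, Tpcn1, Clcn7 and Ctns were under 20 CPM in plasmacytoid dendritic and in NK or ILC1 cells and could only be lower. Laptm5, Cd68, Slc11a1 and Slc29a3, where tested, were under 20 CPM in sinusoidal endothelial cells and could only be higher. The shares over all genes carry the same filter. Plasmacytoid dendritic cells had 6 of 28 members called higher, beside 21.6% of 7718 genes, and 12 called lower, beside 33.1%. Of those 12, 9 were among 13 membrane genes, whose median ratio was 0.410. The 15 V-ATPase genes had a median of 1.17, beside 0.806 over all genes. NK or ILC1 cells had 3 of 26 called higher (Atp6v0e, Atp6v1f and Laptm5), beside 20.1%, and 13 called lower, beside 29.8%. Of the 13, 9 were among 11 membrane genes, with a median of 0.25 beside 0.861 over all genes, and the count of 3 higher fell to 1 when cells were thinned or weighed equally. Nonclassical monocytes, compared after the first results were seen, had 5 of 28 higher, beside 19.5%, and 7 lower, beside 35.1%. Of the 13 membrane genes tested in that class, 3 were higher and 4 lower (30.8%), near the share over all genes. The 3 higher (Laptm5, Cd68 and Slc11a1) could only be higher, as stated above. Of the 4 lower, Mcoln1 and Tpcn1 were under 20 CPM in the monocytes and could only be lower.

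Kupffer cells were also set against plasmacytoid dendritic cells and nonclassical monocytes, after the first results were seen. Over plasmacytoid dendritic cells, 10 of 25 members were higher, beside 19.9% of 6778 genes, and 3 lower (Atp6v1d, Ostm1 and Slc29a3), beside 25.1%. The 10 were Atp6v0a1, Atp6v1a, Atp6v1b2, Atp6v1e1, Atp6ap1, Lamp1, Lamp2, Scarb2, Laptm4a and Slc11a1. Atp6v0a1 and Slc11a1 were under 20 CPM in plasmacytoid dendritic cells and could only be higher. The largest of the 10 with counts in both classes were Atp6v1b2, at 9.19-fold, and Lamp1, at 6.21-fold (5.63 to 6.86). Over nonclassical monocytes, 7 of 26 were higher, beside 17.6% of 6339 genes, and 1 lower (Ostm1), beside 18.9%. There Scarb2 was 3.8-fold (2.78 to 5.28) and Atp6v1a 3.05-fold (2.11 to 4.51) higher in Kupffer cells. Among the 7, Atp6v0a1 and Slc29a3 were under 20 CPM in nonclassical monocytes and could only be higher.

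Of the genes that assemble or regulate the pump, the 23 listed included the TFE3 and MITF factors named above. In Kupffer over sinusoidal endothelial cells 4 of 19 with 20 CPM were higher (Rogdi, Tfe3, Mitf and Lamtor4) and 2 lower (Oxr1 and Slc38a9), which is 21.1% beside 15.5% of all genes and 10.5% beside 33.5%. Tfeb was at 13.6 CPM in both classes and at 68.5 CPM in nonclassical monocytes, 5.03-fold over sinusoidal endothelial cells (3.38 to 7.43). Tfe3 was at 134 CPM in Kupffer and 64.2 CPM in sinusoidal endothelial cells, a ratio of 2.08 (1.66 to 2.60), and Mitf at 58.2 and 4.08 CPM, a ratio of 14.2 (8.35 to 25.1). Tfec was at 100 CPM in Kupffer and 60.7 CPM in sinusoidal endothelial cells, with 2 UMIs in plasmacytoid dendritic cells and 0 in NK or ILC1 cells and monocytes. Lamtor4, part of the Ragulator scaffold on lysosomes, was highest in plasmacytoid dendritic cells at 198 CPM, 5.49-fold over sinusoidal endothelial cells (4.67 to 6.48). Lamtor2, of the same scaffold, was at 139 CPM in NK or ILC1 and 53.1 CPM in sinusoidal endothelial cells. Tfeb, Mitf, Tfec and, below, Slc15a4 were named after their values were seen.

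The 26 other lysosomal membrane genes had 3 of 21 higher in Kupffer cells (Cln3, Slc15a3 and Slc15a4), which is 14.3% beside 15.5% of all genes, and 5 lower, 23.8% beside 33.5%. Slc15a3 and Slc15a4 export histidine and peptides from endolysosomes. Slc15a3 was at 304 CPM in Kupffer and 23.7 CPM in sinusoidal endothelial cells, a ratio of 12.8 (10.3 to 16.1). Slc15a4 was highest in plasmacytoid dendritic cells at 142 CPM, 10.6-fold over sinusoidal endothelial cells (8.24 to 13.8). Cd164, an endolysosomal sialomucin, was at 449 CPM in Kupffer cells, 406 in plasmacytoid dendritic cells and 39.6 CPM in nonclassical monocytes. Mfsd1 was at 162 CPM in Kupffer and 95.9 CPM in sinusoidal endothelial cells. The 9 other V-ATPase subunit genes had 1 that reached 20 CPM in any of the 5 classes, Tcirg1. Atp6v1g2 reached 9.72 CPM and Atp6v0e2 1.56 CPM in their highest classes. Rnasek, a further V0 component, shares all of its 3′-end words with another gene model, so its count is uncertain.

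Among members at 20 CPM or more, the highest and lowest library intervals were apart for 3 of 25 in sinusoidal endothelial cells (12.0%, beside 11.2% of all such genes) and 1 of 25 in Kupffer cells (4%, beside 6.55%). They were apart for 2 of 22 in plasmacytoid dendritic cells (Cd68 and Laptm5, 9.09% beside 8.68%), 0 of 20 in NK or ILC1 cells (beside 7.30%) and 2 of 24 in nonclassical monocytes (Atp6v0e and Cd63, 8.33% beside 4.96%). The suffixes cannot be tied to PBS, 20a-LNP or 20mix-LNP, so these differences carry no agent. One sinusoidal endothelial barcode of suffix 3 had 65.3% haemoglobin UMIs, and without it the Kupffer ratios were 1.66 for the V-ATPase sum and 1.52 for the membrane sum. In all, 3 barcode sequences occur in more than 1 library.

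Smaller classes, pooled over libraries, extended the range. Neutrophils (62 cells) had a V-ATPase sum of 2515 CPM, with Atp6v1g1 at 459 CPM, and a membrane sum of 1699 CPM. The 11 classical monocytes had 2295 and 2896 CPM. Conventional dendritic 1 (87 cells) and 2 cells (61 cells) had 1592 and 1697 CPM for the pump and 1360 and 1802 CPM for the membrane genes. T cells (52) and B cells (48) were at 1045 and 1152 CPM for the pump. With so few cells, and fewer than 20 in at least 1 library, these values have no check between libraries.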

How the data were processed

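The deposited matrix holds unnormalised UMI counts for 31053 genes and 4638 barcodes. It was made with Cell Ranger 3.1.0 per the file headers and on mm10 per the submitters' processing notes, which also name STAR, Seurat and edgeR. Libraries followed 10x 3′ chemistry, per the labels' protocols. Barcodes with under 200 genes or over 20% mitochondrial UMIs were removed (1408), as were 23 doublets called by Scrublet (scanpy 1.11.5) in each library, since droplets can hold more than 1 cell.

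A gate needed at least 4 UMIs of a class's markers, from at least 2 of them, and at least 3 times the UMIs of every other list. UMIs were summed per class. Calls follow the rule given with the first count. Positions and shared 3′ ends come from GENCODE M21 on GRCm38 (50-base words in the last 400 bases), and promoters from RefSeq. TMM factors used edgeR 4.0.16. The calling rule was also run on simulated counts with counting error only. These had no spread between cells or libraries, so the run gives no error rate for the calls here. The genes, lists and settings were chosen with earlier results of these data known. The text covers all 33 members, Tcirg1 and, of each other list, the 3 genes with the highest CPM in a compared class, with exceptions stated there. Treatment comparisons were not made, because no source used here ties a barcode suffix to an agent. UMI totals of 6144949, 8754827 and 9211407 (suffix 1 to 3) limit precision for genes near 20 CPM, and 3 UMIs in Kupffer cells equal 3.71 CPM.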

Additional observations from a re-analysis of the deposited data

Results flagged for a closer look

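Barcodes over the mitochondrial limit were not used in the comparisons, yet many pass a class gate: 316 for sinusoidal endothelial, 64 for Kupffer and 320 for plasmacytoid dendritic cells. They are given here because the genes were measured in them well above the level that 3 UMIs would give (8.0, 31.2 and 4.92 CPM in the same order). Levels in this paragraph are per 1000000 UMIs that are not mitochondrial. The V-ATPase sum was 1381 CPM in the removed sinusoidal endothelial barcodes (1708 in kept cells), 2814 CPM in the Kupffer ones (2894 kept) and 1335 CPM in the plasmacytoid dendritic ones (2218 kept). The lysosomal membrane sum was 2405 CPM (3198 kept), 4258 CPM (4994 kept) and 1537 CPM (2316 kept). The removed level was 0.972 and 0.853 times the kept level for Kupffer, and 0.602 and 0.664 times for plasmacytoid dendritic barcodes. Median UMIs were 1502, 1863 and 2717.5 in the removed barcodes, beside 5444, 3100.5 and 11431 in kept cells, and the part of depth in these differences was not tested.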

How the results depend on the processing

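No paired analysis was possible because each agent has 1 library and the labels carry no replicate numbers. The classes were compared within each library, and no test over the 3 libraries was run. The settings below were run on Kupffer, plasmacytoid dendritic and NK or ILC1 cells against sinusoidal endothelial cells, not on nonclassical monocytes. Among these sums, the ratio that changed direction was the plasmacytoid dendritic membrane sum, 0.732 with all genes and 1.09 without Lamp2. Lamp2 held 38.0% of the endothelial sum. Leaving out the gene of highest CPM in either class also moved the Kupffer membrane sum from 1.53 to 1.07 (Laptm5), the plasmacytoid dendritic V-ATPase sum from 1.31 to 1.18 (Atp6v0e), and the NK or ILC1 sums from 0.789 to 0.664 (Atp6v1f) and from 0.350 to 0.541 (Lamp2). In the order V-ATPase then membrane, TMM scaling gave 1.99 and 1.83 for Kupffer, 1.5 and 0.837 for plasmacytoid dendritic, and 0.828 and 0.368 for NK or ILC1. A total without mitochondrial, ribosomal, hepatocyte and haemoglobin genes gave 1.60 (Kupffer membrane), 1.52 and 0.845 for plasmacytoid dendritic, and 0.898 and 0.399 for NK or ILC1 cells. No mitochondrial limit gave 1.25 and 0.704, and 0.822 and 0.366, for the same 2 classes. Equal weight per cell gave 1.63 (Kupffer membrane), 1.24 (plasmacytoid dendritic V-ATPase) and 0.746 (NK or ILC1 V-ATPase). Thinning to 1000 UMIs gave 1.75 and 1.61 (Kupffer), 1.26 (plasmacytoid dendritic V-ATPase) and 0.334 (NK or ILC1 membrane). The cause was not tested. Without 1 library the Kupffer membrane ratio ran from 1.49 to 1.63 and that of NK or ILC1 from 0.341 to 0.368. Of the counts of genes called higher, that of Kupffer cells went from 8 to 13 at a fold of 1.5, and that of NK or ILC1 cells from 3 to 1 by equal weight or thinning. There were 49 calls of single genes against sinusoidal endothelial cells. Of these, 38 held under every alternative applied to them and 11 were lost under at least 1, none with a change of direction. Changes of the CPM minimum or of the fold were not applied to these calls. A higher minimum would by rule drop the calls of genes that lie under it. Genes without a call, such as Lamp1 and Atp6v0b just under 2 in Kupffer cells, were not followed singly under the alternatives. TMM scaling, with factors of 0.915 for Kupffer and 1.09 for sinusoidal endothelial cells, raises every pooled Kupffer ratio over that class. Slc11a1 had no endothelial UMI after thinning or without the library of suffix 1, so these gave no ratio. Depth limits genes near 20 CPM, above all in Kupffer cells and monocytes.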
